A study of Mus musculus with 12 samples.

Results

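Translational efficiency was compared between thymocytes of wild-type mice (WT) and of miR-181a/b-1 knockout mice (KO), which lack one cluster of paired microRNA genes. For each gene, the change of ribosome footprints between KO and WT was set against the change of RNA between the same genotypes. The gene rows used were those with a mean of at least 10 deposited counts in RNA-seq and at least 10 in footprints, which gave 11631 of 55335 rows. A further 1738 rows reached that mean in RNA-seq only, 1621 in footprints only, and 40345 in neither assay.

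Ribosome footprints are the short stretches of mRNA that translating ribosomes shield from nuclease, and their number per unit of mRNA reflects how heavily a message is loaded. A gene whose footprints change by more than its RNA has changed in loading, whereas equal changes in both assays leave it as it was. MicroRNAs guide Argonaute proteins to partly complementary sites in mRNAs, where they lower translation, mRNA stability or both. In the thymus, miR-181a is known as a rheostat of T cell receptor (TCR) signalling in double-positive thymocytes, acting on phosphatases that dampen the pathway.

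All mice were 6 weeks old and kept under specific-pathogen-free conditions. Thymocytes were strained and put at once into buffer with 0.1 mg/ml cycloheximide, which freezes ribosomes on their messages, so both genotypes carried this treatment. RNA-seq and footprint libraries, made with a ribosome profiling kit, fell into 4 groups of 3: WT and KO in each assay. The labels name the genotype without describing the allele. They state neither that the 3 libraries of a group came from separate mice nor that equal replicate numbers in both assays mark the same mouse, so p-values measure only the spread between these libraries, which may be technical.

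The mature microRNAs of the deleted pair are shown because both carry the same seed (bases 2 to 8, in capitals), the stretch that selects target messages. Sequences and positions are those of RefSeq (GRCm38.p6), with the miR-181a product at chr1:137966468-137966490 and the miR-181b product at chr1:137966650-137966673, both on the plus strand.
mmu-miR-181a-5p: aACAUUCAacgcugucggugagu
mmu-miR-181b-5p: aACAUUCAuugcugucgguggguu
The row of Mir181a-1 (ENSMUSG00000065565.1) held 167, 133 and 144 CPM (counts relative to the library total, scaled within the assay) in the WT footprint libraries and 0.461, 1.05 and 0.964 in the KO ones. Its WT and KO footprint values did not overlap. In RNA-seq the same row held 3.95, 3.46 and 0.963 CPM in WT and 2.33, 2.33 and 5.19 in KO, ranges that overlap, so it checks the labels of the footprint libraries alone. Mir181b-1 had no counted read in any of the 12 libraries.

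The shallowest RNA-seq library had 4479182 gene reads and the deepest 8180286, against 4069968 and 17859770 for footprints. All 10 thymocyte markers examined were among the tested genes, and their summed level ran from 10575 to 12782 CPM in RNA-seq and from 18095 to 20093 in footprints. Each of 8 marker lists of other cell types summed to at most 495 CPM in any library, and no marker was at 0 in all. Neutrophil markers summed to 21.3 to 33.8 CPM in WT RNA-seq against 43.2 to 68.7 in KO, and to 185 to 282 against 297 to 495 in footprints. In bulk samples such as these, fewer cells of a type and less RNA per cell cannot be told apart. The deviations of a WT library from its group mean were the mirror image of those of the same-numbered KO library (r of -0.93 to -0.87 across genes in RNA-seq, -0.92 to -0.88 in footprints), so the SDs below may not measure the spread between mice. The fits therefore carry the replicate number as a block within assay, and each list's median is also given by replicate number, while sums and the main genes are given by library with no regard to number.

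The TE shift of a gene is used below for its log2 difference between KO and WT in footprints minus that in RNA-seq. Over the 11631 genes the median TE shift was 0.0038, with quartiles at -0.14 and 0.17. The shift was above 0 in 5894 genes, or 50.7%. By edgeR's quasi-likelihood test with Benjamini-Hochberg adjustment, 2 genes passed an adjusted p of 0.05 (0.0172% of those tested): Mir181a-1 itself and Gm4759. An unadjusted p under 0.05 was reached by 369 genes, 3.17% of those tested, with 215 higher (1.85%) and 154 lower (1.32%). In 1016 genes (8.74%) the 3 footprint differences lay wholly above (526 genes, 4.52%) or wholly below (490 genes, 4.21%) the 3 RNA-seq differences. The median SE of a TE shift was 0.22, wider than either quartile, so the genes are described by class.

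Single values scattered more at low counts. In the 345 genes just inside the filter, with the lower of their mean counts in both assays at 10 to 12, the median absolute TE shift was 0.42, and it was 0.43 in the 436 genes just outside it at 8 to 10. At 100 to 120 counts it was 0.17. Among the 7542 genes with at least 10 CPM in both assays, 100 had a TE shift of at least 0.5 and 67 of at most -0.5. The first of these sets, chosen by the shift itself, had a median log2 difference of -0.29 in RNA-seq and 0.31 in footprints, and the second had 0.33 and -0.35. RNA and footprints differed in opposite directions in 68 of the 100 and in 49 of the 67 genes.

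Lists of genes by function were then compared with all tested genes. Of 57 lists with at least 8 tested members, 28 had a median TE shift above that of all genes and 29 below it. The highest medians were those of TCR-induced genes, extracellular matrix genes, published targets of miR-181, dual-specificity phosphatases and glycolysis. Rows of microRNA genes and of small nucleolar RNAs, mitosis genes, ubiquitin-specific proteases and kinesins had the lowest. In 6 lists the median difference was higher in footprints than in RNA-seq in each of the 3 replicate numbers, in 13 lists it was lower in each, and in 38 the numbers disagreed. This sets libraries of equal number side by side, which the labels do not state to belong together. Another matching could change these counts and the differences by number given below. Without any matching, the 3 footprint medians lay wholly above the 3 RNA-seq medians in 2 lists and wholly below them in 2. In 53 lists they overlapped. A median TE shift is given here with no test, because the lists were chosen with results of these data known.

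**Figure D1:**
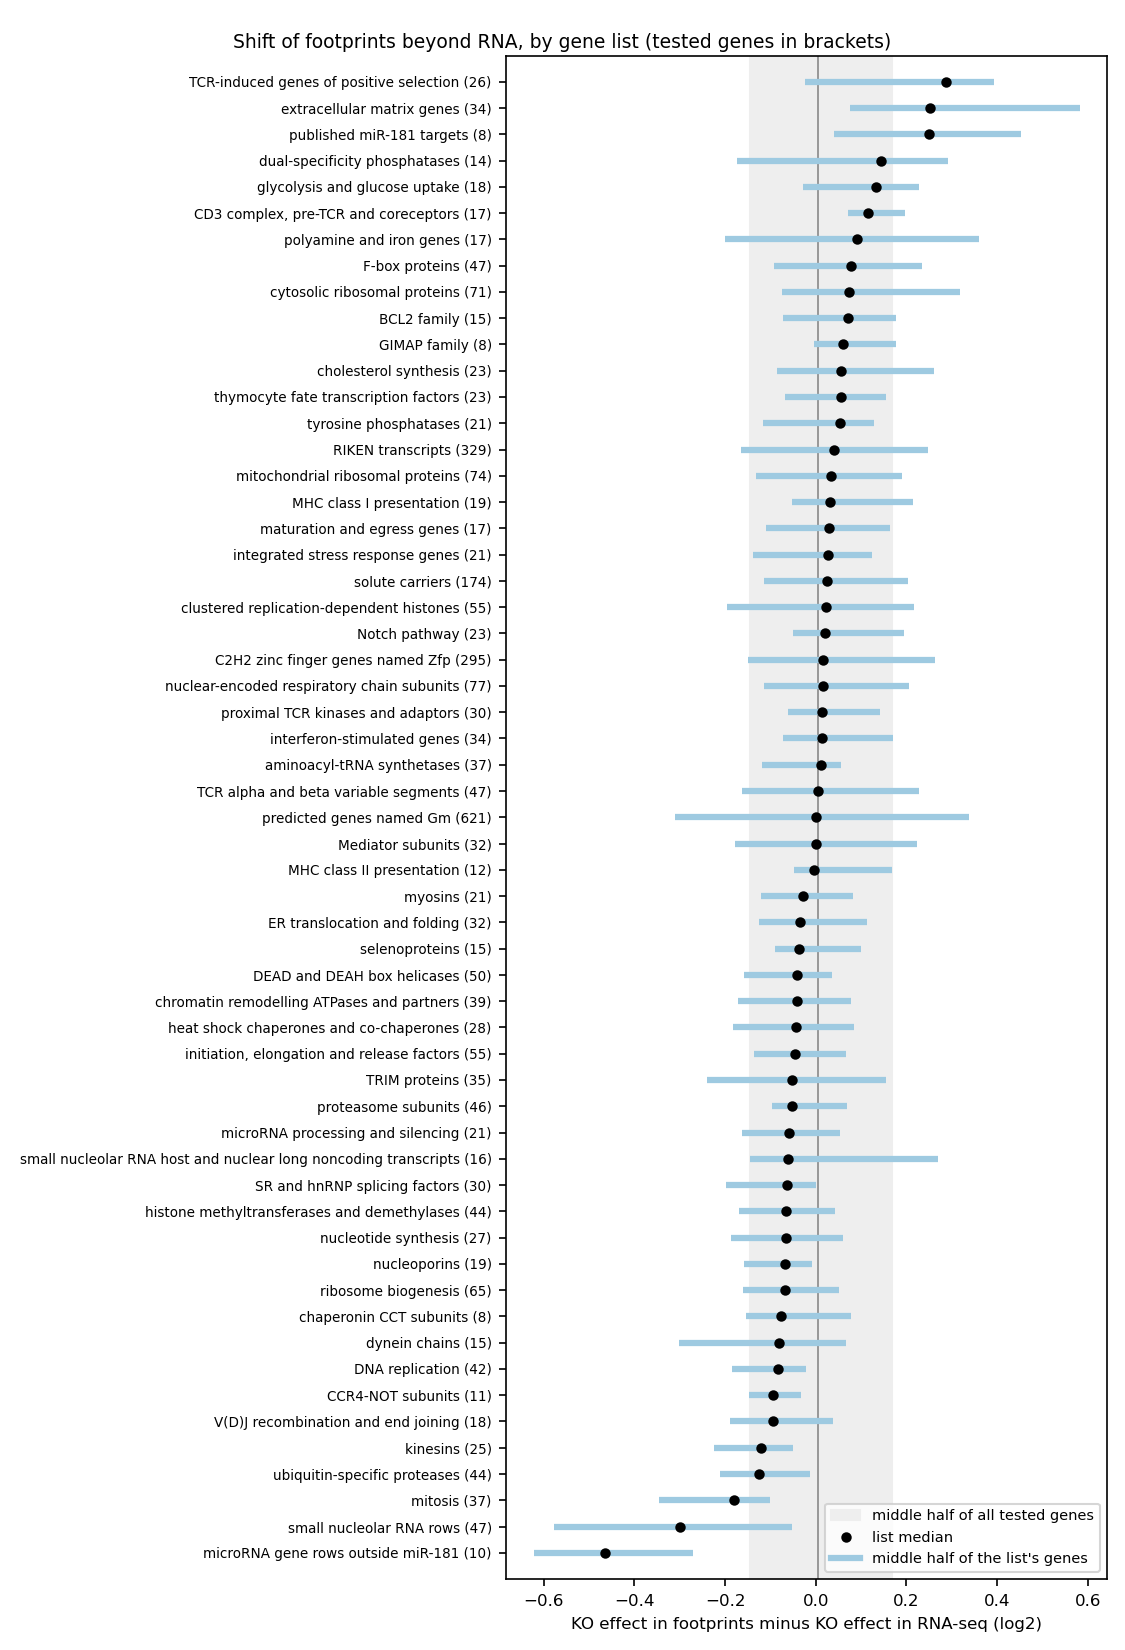
Median TE shift (log2, horizontal axis) of each of 57 gene lists, with the number of tested genes in brackets. Dots are medians, blue bars run from the lower to the upper quartile of each list, and the grey band does so for all 11631 tested genes. The medians of 3 lists at the top and of 3 at the bottom lie beyond 0.17 in size.

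TCR-induced genes of positive selection are early-response regulators and surface proteins that thymocytes switch on when their receptor is engaged. By the median gene, footprints were higher in KO and RNA was nearly level, though summed RNA was higher too. The median log2 difference was 0.29 in footprints and 0.035 in RNA-seq over 26 tested genes of 29. The median TE shift was 0.29, with 19 genes higher and 7 lower. At an unadjusted p under 0.05 lay 4 genes, all higher, or 15.4% of the list against 3.17% of all genes, and none passed after adjustment. By replicate number the median difference was -0.19, 0.16 and 0.20 in RNA-seq and 0.15, 0.37 and 0.45 in footprints, so the 2 sets overlapped. With equal numbers set side by side, footprints exceeded RNA by 0.33, 0.21 and 0.25. The summed level of the 26 genes was 2266, 2125 and 2041 CPM in the WT footprint libraries and 2609, 2823 and 2799 in KO, with no overlap. In RNA-seq the sums were 1873, 1689 and 1656 CPM in WT and 1922, 2096 and 2222 in KO, also without overlap.

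Of these 4 genes only Nab2 was named by rule, and the others after their values were seen. Nab2 encodes a corepressor that EGR factors induce as their own feedback inhibitor. It held 52.8, 39.9 and 45.6 CPM in WT footprints and 57.4, 77.3 and 65.6 in KO, and 44.4, 32.4 and 43.0 against 33.9, 45.7 and 35.6 in RNA-seq. The footprint ranges did not overlap and the RNA ranges did, which gave a TE shift of 0.60 (SE 0.26). Egr3, a zinc finger factor induced by TCR signalling, held 3.17, 2.64 and 2.53 CPM in WT footprints and 4.89, 5.91 and 6.02 in KO, with 11.9, 10.6 and 10.5 against 9.32, 10.5 and 10.9 in RNA-seq (TE shift 1.09, SE 0.32). Nr4a1, the orphan nuclear receptor Nur77 widely used as a readout of TCR signal strength, held 101, 84.8 and 86.8 against 114, 138 and 129 CPM in footprints, and overlapping values in RNA-seq (TE shift 0.47, SE 0.22). Cd5, a surface protein set by TCR signal strength that restrains it, held 486, 443 and 418 against 514, 574 and 577 CPM in footprints and 194, 167 and 185 against 162, 186 and 172 in RNA-seq (TE shift 0.38, SE 0.17).

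Other members differed by like amounts in both assays. Tox, a factor needed for CD4 lineage development, had log2 differences of 0.68 in RNA-seq and 0.74 in footprints, and Cd69, the early activation marker, 0.65 and 0.59. Ikzf2, which encodes the transcription factor Helios, was the lowest member with at least 10 CPM in both assays: its RNA difference was 0.63 and its footprint difference 0.28, a TE shift of -0.35 (SE 0.20). Jun was lower still at -0.55, on 4.54 CPM in RNA-seq. The list's median was 0.17 without RNA-seq WT replicate 1 and 0.18 without RNA-seq KO replicate 1, and it was 0.099 when the reads of all members were summed, which weights abundant members.

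**Figure D2:**
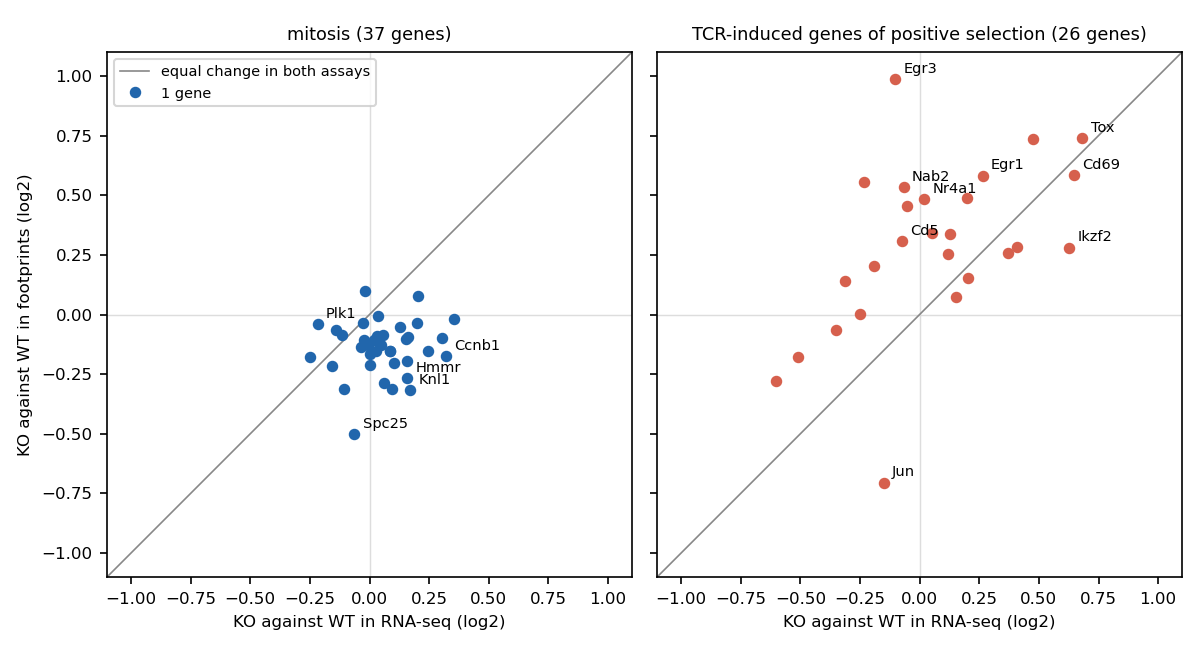
Log2 difference between KO and WT in RNA-seq (horizontal axis) and in footprints (vertical axis) for the 37 mitosis genes (left) and 26 TCR-induced genes (right), 1 dot a gene, with the line of equal change. Of the mitosis genes 32 lie below the line, and of the TCR-induced genes 19 lie above it.

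Components of the receptor itself, the coreceptors and related surface proteins mostly had a TE shift above 0. This list shares Cd5 with the TCR-induced genes. Of 17 genes, all tested, 15 had a TE shift above 0 and 2 below it. The median of 0.11 stayed between 0.047 and 0.19 under 21 alternative settings, not all of which are separate checks. The median difference was -0.12, 0.059 and 0.14 in RNA-seq and 0.049, 0.14 and 0.28 in footprints by replicate number, so the 2 sets overlapped. Cd4, the coreceptor for MHC class II, held 2070, 1995 and 1795 CPM in WT footprints and 2741, 2888 and 3038 in KO. Its RNA was 1035, 996 and 1006 CPM in WT and 1133, 1163 and 1182 in KO, so neither assay overlapped between genotypes (TE shift 0.37, SE 0.16). The CD3 chains Cd3e, Cd3d and Cd3g had TE shifts of 0.20, 0.16 and 0.097, and the MHC class I coreceptor chains Cd8a and Cd8b1 0.091 and 0.077. Cd2 and Ptprc, the latter encoding the phosphatase CD45, were the 2 below 0, at -0.020 and -0.13. Kinases and adaptors just downstream of the receptor had a median of 0.014, with 17 of 30 genes higher.

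Published targets of miR-181 in T cells numbered 8, all tested, and 6 had a TE shift above 0, with a median of 0.25. All 3 footprint medians by replicate number (-0.024, 0.42 and 0.18) lay above all 3 RNA-seq medians (-0.12, -0.11 and -0.076). Dusp6, a phosphatase of ERK kinases, held 68.0, 65.8 and 60.3 CPM in WT footprints and 105, 111 and 114 in KO. Its RNA held 33.1, 33.5 and 30.1 against 39.3, 38.2 and 43.7 CPM. Both assays were higher in every KO library, footprints by 0.76 and RNA by 0.33 on the log2 scale, and the TE shift was 0.43 (SE 0.17).

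S1pr1, the receptor through which mature thymocytes leave the thymus, held 26.2, 26.8 and 26.8 CPM in WT footprints and 23.8, 23.6 and 22.4 in KO, while its RNA held 36.9, 25.2 and 29.2 against 14.0, 21.0 and 18.5 CPM. It was thus lower in KO in both assays, more so in RNA, which made its TE shift 0.59 (SE 0.26). Dusp5, a nuclear ERK phosphatase, had log2 differences of -0.34 in RNA-seq and 0.16 in footprints (TE shift 0.50, SE 0.24). Nrarp, a feedback inhibitor of Notch, had -0.75 and -0.34 at 3.18 and 1.52 CPM (TE shift 0.42, SE 0.48). The tyrosine phosphatases Ptpn22 and Ptpn11 had TE shifts of -0.097 (SE 0.15) and 0.075 (SE 0.18), the survival factor Bcl2 0.085 (SE 0.22) and Cd69 -0.061 (SE 0.20). Ptpn22 held 136, 138 and 136 CPM in WT footprints and 184, 184 and 177 in KO, with RNA of 142, 130 and 125 against 175, 188 and 201, so it was higher in KO in both assays by like amounts. The list's median was 0.085 over the members with at least 10 CPM in both assays, and 0.13 without replicate 2 of either footprint group, where 4 of 8 genes were higher.

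Dual-specificity phosphatases, which remove phosphate from MAP kinases, had a median TE shift of 0.14 over 14 tested genes, with 9 higher and 5 lower. By replicate number footprints differed from RNA by 0.023, 0.20 and -0.089, so number 3 went the other way. Dusp5 and Dusp6 belong to both lists. Dusp4, an inducible nuclear member, held 16.3, 15.9 and 14.4 CPM in WT footprints and 20.7, 21.5 and 22.9 in KO, and 17.4, 18.1 and 16.9 against 16.9, 16.1 and 17.8 in RNA-seq (TE shift 0.51, SE 0.22). Its footprints did not overlap between genotypes and its RNA did. Dusp10 was higher in both assays (0.60 in RNA-seq and 0.69 in footprints), and Dusp11, which acts on RNA rather than on kinases, had a TE shift of -0.21 (SE 0.16). Without replicate 2 of either footprint group the list's median was 0.044.

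Glycolysis and glucose uptake genes had a median TE shift of 0.13 over 18 tested genes, 12 higher and 6 lower. Eno1, the enolase that forms phosphoenolpyruvate, held 122, 119 and 113 CPM in WT footprints and 155, 162 and 161 in KO. Its RNA was 43.2, 39.7 and 46.1 CPM in WT and 40.5, 43.6 and 38.2 in KO, so footprints were separate and RNA overlapped (TE shift 0.52, SE 0.16). Aldoa, the aldolase that splits the 6-carbon sugar, had a TE shift of 0.42 (SE 0.17). Slc16a1, a lactate transporter, was the lowest at -0.20 (SE 0.19). This list rested on replicate number 3, with footprints above RNA by 0.50 against -0.021 and -0.075 in the others, and the median was 0.00098 without RNA-seq WT replicate 3 and 0.0094 without RNA-seq KO replicate 3.

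**Figure D3:**
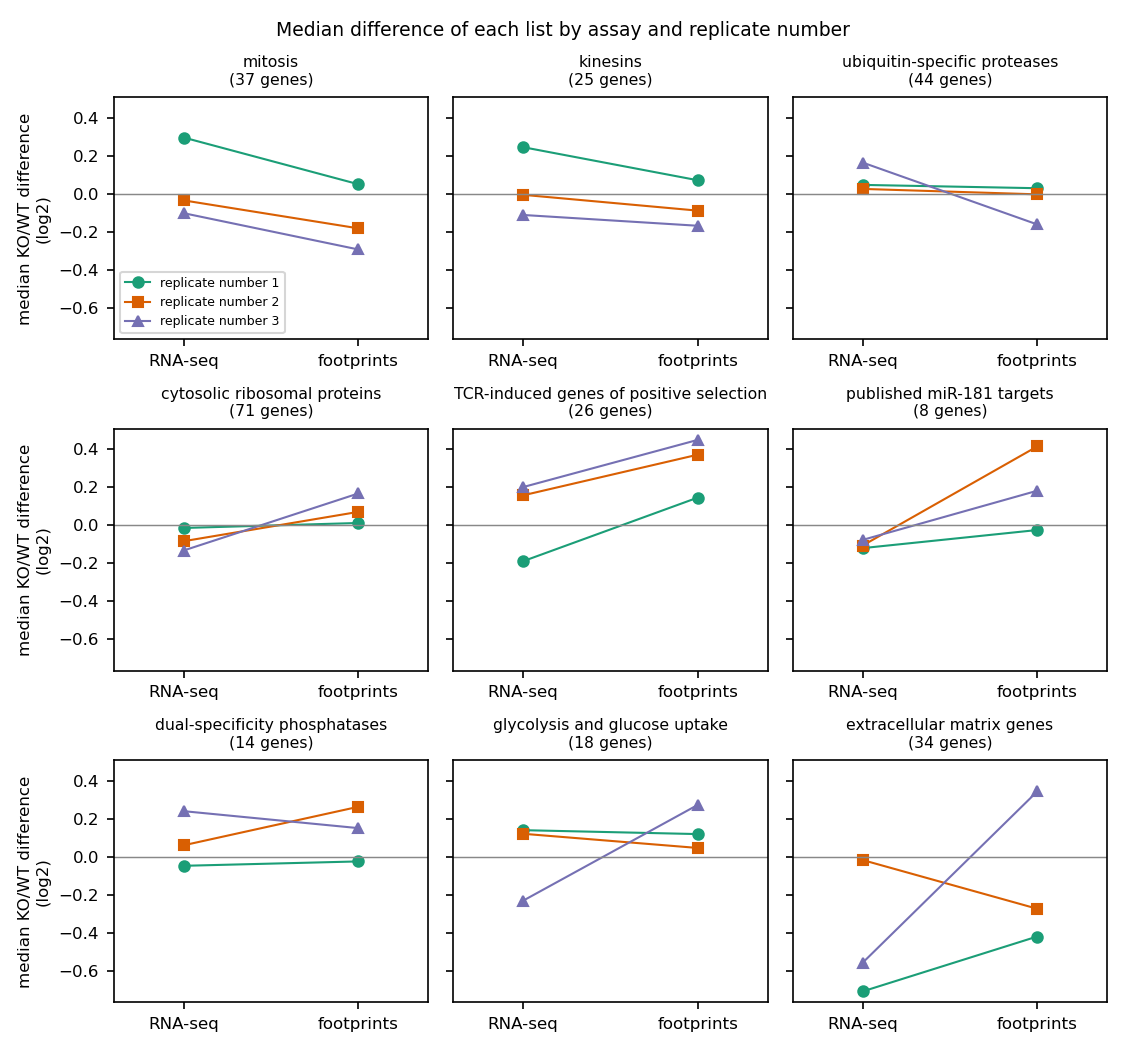
Median log2 difference between KO and WT of 9 gene lists in RNA-seq and footprints, 1 line for each replicate number. The lines join equal numbers, which the labels do not pair across assays. Footprints are below RNA in all 3 numbers for mitosis, kinesins and ubiquitin-specific proteases, above it in all 3 for ribosomal proteins, TCR-induced genes and published targets, and neither in the 3 lists at the bottom.

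Extracellular matrix genes (collagens, laminins and other proteins made mainly by stromal cells) had a median TE shift of 0.25 over 34 tested genes, 26 higher and 8 lower. The list's median log2 difference was -0.40 in RNA-seq and -0.12 in footprints. Summed RNA of the 34 genes was lower in KO without overlap (321 to 367 CPM in WT, 242 to 282 in KO). Summed footprints overlapped (694 to 881 CPM in WT, 640 to 814 in KO), and the footprint median by replicate number was -0.42, -0.27 and 0.34. Hspg2, the basement membrane proteoglycan perlecan, held 44.4, 44.4 and 41.3 CPM in WT RNA-seq and 7.28, 6.76 and 7.97 in KO, and 41.8, 33.6 and 29.2 against 17.1, 23.1 and 25.5 in footprints. Its values were separate between genotypes in both assays and its TE shift of 1.86 (SE 0.28) had an adjusted p of 0.0600 in edgeR. Tnc and Col1a1 had TE shifts of 0.76 (SE 0.32) and 0.77 (SE 0.34). That of Tnc rested on lower RNA (-0.82, against -0.056 in footprints). Col1a1 had lower RNA (-0.42, on 9.22 CPM) and a footprint difference of 0.34, with footprints that overlapped between genotypes. By replicate number footprints exceeded RNA by 0.29, -0.26 and 0.90, and 8 of the 34 genes had at least 10 CPM in both assays. Fibroblast markers, which share 4 genes with this list, summed to 46.7 to 49.6 CPM in WT RNA-seq and 46.1 to 48.5 in KO, and to 108 to 154 against 134 to 184 in footprints. Thymic epithelium markers were lower in KO in RNA-seq without overlap (65.6 to 73.9 CPM in WT, 54.2 to 61.4 in KO) and overlapped in footprints (172 to 249 against 179 to 254). Endothelium markers were higher in KO without overlap in both assays, at 169 to 175 against 202 to 209 CPM in RNA-seq and 142 to 149 against 156 to 159 in footprints. The part of these cell types in the result was not tested.

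Proteins of the cytosolic ribosome are encoded by messages that growth signals load onto ribosomes together. Of 79 rows 71 were tested, 42 with a TE shift above 0 and 29 below it, with a median of 0.073. By replicate number the median difference was -0.013, -0.083 and -0.13 in RNA-seq and 0.013, 0.071 and 0.17 in footprints, so the 3 footprint values lay above the 3 RNA values. An unadjusted p under 0.05 was reached by 7 genes, 6 higher and 1 lower, or 9.86% of the list against 3.17% of all genes. The differences were separate between assays in 11 genes above and 2 below, or 18.3% of the list against 8.74% of all genes. By level, the 39 with at least 10 CPM in both assays had a median of 0.21, and the other 32 a median of -0.042. Genes of the large subunit had a median of 0.10 (44 genes) and those of the small subunit -0.00098 (27 genes), a split made after the values were seen.

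The summed level of the 71 ribosomal protein genes was 5174, 5180 and 5651 CPM in WT RNA-seq and 5093, 5026 and 4716 in KO. In footprints it was 4153, 3743 and 3748 CPM in WT and 3793, 4246 and 4063 in KO, ranges that overlap. Rpl6 held 27.4, 22.8 and 26.4 against 18.1, 21.7 and 19.0 CPM in RNA-seq and 13.5, 12.1 and 9.55 against 13.8, 16.2 and 19.5 in footprints (TE shift 0.85, SE 0.27). Its RNA was lower and its footprints higher in every KO library. Rplp1, a stalk protein that recruits elongation factors, and Rps15 had TE shifts of 0.76 (SE 0.19) and 0.65 (SE 0.19), Rpl18 0.76 (SE 0.26), Rps25 0.81 (SE 0.28) and Rps2 0.59 (SE 0.26). Rps18 was the lowest with at least 10 CPM in both assays, at -0.42 (SE 0.27), and Rpl27a lay at -0.77 (SE 0.33) on 1.91 CPM of footprints. Ribosomal protein genes have many near-identical pseudogene copies, and reads shared with such copies may have been set apart in the counting, so single values of this family are uncertain.

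**Figure D4:**
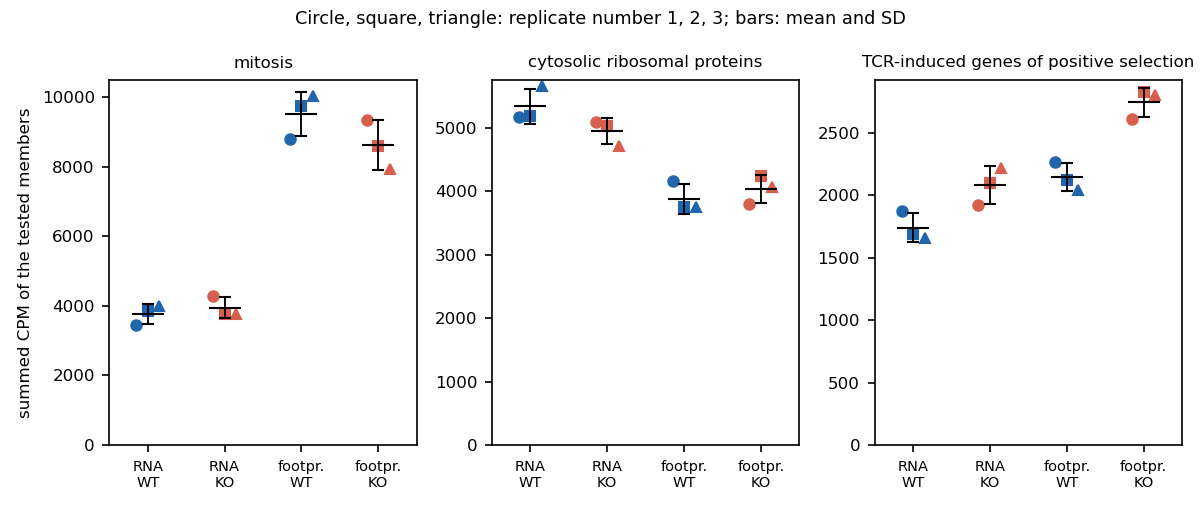
Summed CPM (vertical axis, from 0) of the tested members of 3 lists in each library, with mean and SD of 3 libraries per group. Mitosis sums are 8795 to 10020 in WT footprints and 7922 to 9340 in KO, while TCR-induced genes are separate between genotypes in both assays.

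The rest of the translation machinery lay close to all genes. Initiation, elongation and release factors had a median TE shift of -0.046 with 23 of 55 higher, aminoacyl-tRNA synthetases 0.011 with 20 of 37 higher, and mitochondrial ribosomal proteins 0.034 with 42 of 74 higher and none at an unadjusted p under 0.05. Eef2, the factor that moves the ribosome along the message, had the highest TE shift of the factors with at least 10 CPM in both assays. Its RNA held 1249, 1225 and 1448 CPM in WT and 1079, 1092 and 927 in KO, and its footprints 1244, 1192 and 1156 against 1211, 1282 and 1255. RNA was separate and footprints overlapped (TE shift 0.40, SE 0.17). Eif4e3, a cap-binding relative of eIF4E, had a TE shift of -0.37 (SE 0.19), and Pabpc4, a poly(A)-binding protein named after its value was seen, -0.65 (SE 0.27). Vars2, a mitochondrial synthetase, was the highest well-counted member of its list at 0.27 (SE 0.21), and Mrps27 and Mrpl45 marked the ends of theirs at 0.48 (SE 0.24) and -0.37 (SE 0.22).

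Ribosome biogenesis factors, which assemble the subunits in the nucleolus, had 65 tested genes. Of these 22 had a TE shift above 0 and 43 below, with a median of -0.069, and none reached an unadjusted p under 0.05. By replicate number footprints differed from RNA by -0.15, -0.10 and 0.015, so number 3 went the other way. With 1 library left out the median ran from -0.14 without RNA-seq WT replicate 3 to -6.4e-05 without footprint WT replicate 1. Their summed footprints were 7699, 7511 and 7591 CPM in WT and 7027, 7290 and 6860 in KO, which did not overlap, while the RNA sums overlapped. Pes1, of the complex that matures the large subunit, and Ebna1bp2 were the extremes at 0.24 (SE 0.20) and -0.35 (SE 0.18). The difference between the ribosomal protein list and the biogenesis list was not tested.

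Mitosis genes had the lowest median among the lists of protein-coding genes. Of 37 genes, all tested, 32 had a TE shift below 0 and 5 above, with a median of -0.18 and quartiles of -0.35 and -0.10. The median log2 difference was 0.049 in RNA-seq and -0.13 in footprints. By replicate number it was 0.30, -0.034 and -0.10 in RNA-seq and 0.051, -0.18 and -0.29 in footprints, so the 2 sets overlapped. With equal numbers set side by side, footprints differed from RNA by -0.25, -0.15 and -0.19. Footprint number 1 lay above RNA-seq numbers 2 and 3, so the common sign depends on that matching. Differences were separate between assays in 5 genes, all below (13.5% of the list against 8.74% of all genes), and 3 genes, all lower, reached an unadjusted p under 0.05 (8.11% against 3.17% of all genes). None passed after adjustment.

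Of the members named here, all but Ccnb1, Plk1 and Kif11 were picked after their values were seen. Ccnb1, the cyclin that drives entry into mitosis, was the lowest with log2 differences of 0.32 in RNA-seq and -0.18 in footprints: it held 15.5, 16.2 and 18.7 against 22.6, 21.7 and 18.9 CPM in RNA-seq and 15.7, 21.5 and 22.4 against 21.3, 16.3 and 14.2 in footprints (TE shift -0.49, SE 0.29). Its footprint ranges overlapped and its RNA was higher in every KO library. Knl1, Spc25, Nuf2 and Ndc80, all of the kinetochore complex that holds microtubules, had TE shifts of -0.49 (SE 0.20), -0.44 (SE 0.21), -0.41 (SE 0.19) and -0.26 (SE 0.16). Cenpe, the kinetochore motor, held 184, 201 and 205 against 249, 224 and 226 CPM in RNA-seq and 292, 315 and 344 against 310, 293 and 253 in footprints (TE shift -0.40, SE 0.17). Hmmr, a spindle protein, had a TE shift of -0.42 (SE 0.19), and the checkpoint genes Bub1, Mad2l1 and Bub1b -0.35 (SE 0.17), -0.37 (SE 0.21) and -0.24 (SE 0.19).

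The 5 mitosis genes above 0 included the kinases Plk1, Aurkb and Aurka at 0.18 (SE 0.26), 0.12 (SE 0.18) and 0.068 (SE 0.19), with Cdc20 and Dlgap5 at 0.075 (SE 0.20) and 0.028 (SE 0.18). The list's median kept its sign under all 21 alternatives tried, between -0.30 and -0.042. These are not all separate checks, since leaving out a WT library or its same-numbered KO library gave nearly the same fit. The value nearest 0 came without RNA-seq KO replicate 1, and it was -0.052 without RNA-seq WT replicate 1, with 22 of 37 genes lower in either case.

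Kinesins, the motors that walk along microtubules, had a median TE shift of -0.12 with 4 of 25 tested genes higher. They share 5 members with the mitosis list (Kif11, Kif20a, Kif23, Kif2c and Kif4), and the other 20 had a median of -0.11 with 4 higher. Kif11, the motor that separates spindle poles, held 71.7, 81.6 and 84.9 against 81.8, 73.5 and 66.5 CPM in footprints and 34.3, 37.3 and 31.9 against 42.8, 38.2 and 46.6 in RNA-seq (TE shift -0.40, SE 0.20). Its footprints overlapped and its RNA was higher in every KO library. Kif5b, the conventional kinesin of cargo transport, lay at -0.29 (SE 0.16), and Kif1c was the highest at 0.19 (SE 0.21). The median was -0.024 without RNA-seq KO replicate 1 and -0.034 without RNA-seq WT replicate 1. Dynein chains, motors of the opposite direction, had 5 of 15 genes higher and a median of -0.081, with the 3 footprint medians (-0.063, -0.033 and -0.24) all below the 3 RNA medians (0.048, 0.093 and 0.056).

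DNA replication genes depended on single libraries. Of 42 genes, all tested, 9 had a TE shift above 0 and 33 below it, with a median of -0.084, and none reached an unadjusted p under 0.05. Their footprint medians were below RNA by -0.14, -0.087 and -0.0034 in the 3 numbers. The median turned to 0.042 without RNA-seq WT replicate 1 and to 0.051 without RNA-seq KO replicate 1, and it was -0.22 without RNA-seq WT replicate 3. Origin recognition genes lay low (Orc6 at -0.41, Orc1 at -0.37, Orc5 at -0.32 and Orc4 at -0.31), whereas the helicase genes Mcm2, Mcm5 and Mcm7 lay at 0.047, 0.015 and 0.030. Nucleoporins, which form the nuclear pore, had 5 of 19 genes higher and a median of -0.068, with all 3 footprint medians below all 3 RNA medians. Ubiquitin-specific proteases, which remove ubiquitin from proteins, had 10 of 44 higher, a median of -0.13 and no gene at an unadjusted p under 0.05. The interferon-induced Usp18 was the lowest at -0.38 (SE 0.21) and Usp20 the highest at 0.19 (SE 0.25). Number 3 contributed most to this list, at -0.33 against -0.017 and -0.029.

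Messages known to be controlled at translation showed no common direction. Genes of the integrated stress response, in which phosphorylation of eIF2 lets upstream reading frames be bypassed, had 13 of 21 higher with a median of 0.027, but the median difference by replicate number was lower in footprints than in RNA by -0.099, -0.091 and -0.12, so the 2 summaries differ in sign. Atf4, its central transcription factor, had a TE shift of 0.20 (SE 0.17), and Ppp1r15a, which reverses the phosphorylation, 0.19 (SE 0.42). Slc7a11, the cystine transporter that ATF4 induces, was the lowest: it held 212, 209 and 212 against 249, 250 and 253 CPM in RNA-seq and 98.5, 107 and 126 against 108, 102 and 79.8 in footprints (TE shift -0.43, SE 0.19). Its RNA was higher in every KO library and its footprints overlapped. Phgdh, of serine synthesis, was the highest with at least 10 CPM in both assays at 0.29 (SE 0.26).

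Polyamine and iron genes had 12 of 17 higher and a median of 0.090. Messages of the ferritin chains Ftl1 and Fth1, which iron-regulatory proteins hold back from ribosomes, had TE shifts of 0.69 (SE 0.35) and 0.38 (SE 0.19), and Tfrc, the transferrin receptor, -0.39 (SE 0.19). Tfrc held 101, 112 and 99.0 against 125, 109 and 130 CPM in RNA-seq and 167, 192 and 207 against 188, 168 and 146 in footprints, with overlap in both. Selenoproteins, whose messages recode a stop codon, had 6 of 15 higher and a median of -0.038, with Selenoo at 0.28 (SE 0.19) and Selenos at -0.14 (SE 0.18) as the ends among well-counted genes.

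Rows of small nucleolar RNAs and of microRNA genes had the lowest medians of all lists, -0.30 (11 of 47 higher) and -0.47 (2 of 10 higher). These RNAs are not translated, so the value is a difference between 2 kinds of library and not a translational efficiency. For small nucleolar RNAs the RNA-seq median was 1.07 in replicate number 2 against -0.022 and -0.33 in the others, and the list's median was 0.069 without RNA-seq WT replicate 2 and 0.070 without RNA-seq KO replicate 2. Snord13 and Snord72 were the highest and lowest with at least 10 CPM in both assays, at 1.01 (SE 0.40) and -1.64 (SE 0.53). Of the microRNA rows only Mir142 had at least 10 CPM in both assays. Its 2 products are shown because they are abundant in blood cells, with the seed in capitals (RefSeq, GRCm38.p6, chr11:87756867-87756887 and chr11:87756903-87756925, plus strand).
mmu-miR-142a-5p: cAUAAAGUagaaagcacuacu
mmu-miR-142a-3p: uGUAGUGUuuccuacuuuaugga
Mir142 held 359, 307 and 328 CPM in WT footprint libraries and 251, 297 and 266 in KO, which did not overlap, and 32.4, 36.8 and 40.8 against 50.2, 44.5 and 40.6 in RNA-seq (shift -0.59, SE 0.19).

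Single genes are given last because 1 gene other than Mir181a-1 passed adjustment. Gm4759 (ENSMUSG00000053541.3), a predicted gene, held 30.2, 27.8 and 28.6 CPM in WT RNA-seq and 43.7, 47.1 and 47.0 in KO, and 6.05, 4.89 and 7.30 against 37.7, 44.3 and 30.1 in footprints. It was higher in KO in every library of both assays, and its TE shift was 1.98 (SE 0.26, edgeR adjusted p 0.0172). The call was lost without replicate 1 or 3 of either RNA-seq group and without replicate 1 or 2 of either footprint group, with TE shifts of 1.69 to 2.02 and adjusted p of 0.0671 to 0.142, and it held without the others. Slc37a2, a sugar phosphate exchanger, held 80.7, 82.4 and 84.8 against 56.1, 54.1 and 54.2 CPM in RNA-seq and 31.3, 32.9 and 31.8 against 38.2, 36.8 and 36.1 in footprints. Its RNA was lower and its footprints higher in each KO library, with a TE shift of 0.81 (SE 0.16, edgeR adjusted p 0.573).

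The other genes of the 10 highest TE shifts with separate differences were Hspg2, Gm24289, Tpt1, Ssbp4, Rpl6, Zfp358, Hist1h2bf and Rpl18, between 0.76 and 1.86. Tpt1, which encodes the growth-linked protein TCTP and is itself a growth-regulated message, held 9.74, 14.6 and 12.3 CPM in WT footprints and 23.1, 15.9 and 18.6 in KO, and 21.0, 18.0 and 19.4 against 15.1, 17.7 and 16.8 in RNA-seq (TE shift 0.89, SE 0.29). Its footprints were higher and its RNA lower in every KO library. Among the 10 lowest were Hspa8, A430106G13Rik, Ddx3y, Fam69a, Haus3, Nipsnap1 and Phf11c, with 3 rows without a known protein product (CT010467.1, Gm25541 and Gm25313), between -1.18 and -0.66. Whether the rows of Gm4759, A430106G13Rik and Gm24289 code for protein was not examined, so their shifts may not be changes in ribosome loading.

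Hspa8, the constitutive HSC70 chaperone, held 151, 99.7 and 134 against 16.0, 24.9 and 18.9 CPM in RNA-seq and 196, 140 and 181 against 9.69, 14.3 and 10.1 in footprints. The counts of its row were far lower in KO in both assays, footprints more so, with a TE shift of -1.18 (SE 0.32). Reads with several alignments were left out of all rows and made up 13.1% to 20.5% of RNA-seq and 17.7% to 18.6% of footprint counts. What share of the Hspa8 or Tpt1 reads this took was not examined, so their values are uncertain. Haus3, a subunit of the augmin complex that branches spindle microtubules, held 110, 102 and 91.0 against 151, 161 and 183 CPM in RNA-seq and overlapping values of 89.9 to 112 against 88.2 to 114 in footprints (TE shift -0.70, SE 0.20). Its RNA was higher in KO with no matching difference in footprints. Ddx3y, the Y-linked copy of an RNA helicase that unwinds messages at initiation, held 152, 131 and 124 against 158, 182 and 194 CPM in RNA-seq and 110, 117 and 108 against 85.2, 80.7 and 83.6 in footprints. RNA was higher and footprints lower in each KO library, with a TE shift of -0.82 (SE 0.17, edgeR adjusted p 0.824). Reads that Ddx3y shares with its X-linked copy may have been set apart in the counting.

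**Figure D5:**
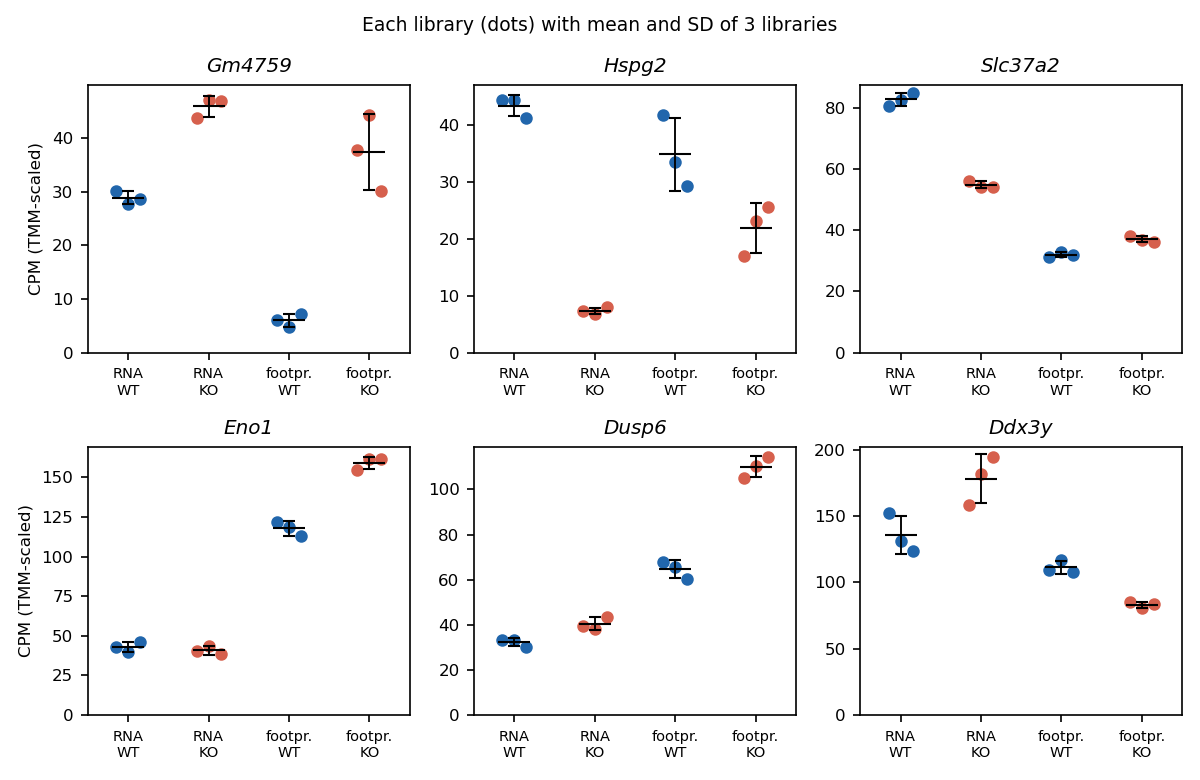
CPM (vertical axis, from 0) of 6 genes in each of the 12 libraries, with mean and SD of the 3 libraries of a group. Gm4759 is higher in KO in both assays and more so in footprints, Eno1 is separate between genotypes in footprints and overlaps in RNA-seq, and RNA and footprints of Slc37a2 and Ddx3y go in opposite directions.

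Levels of RNA and footprints, on which the choice of genes by mean count also drew, are given as a description. The tested genes were put into 4 bins of equal size by mean RNA-seq level, and the median TE shift went from 0.052 in the lowest bin to 0.029, 0.00019 and -0.030 in the highest. By mean footprint level it went from 0.049 to -0.031. Bins by the ratio of footprints to RNA had medians of 0.0088, -0.0014, -0.0024 and 0.015, with no order along the ratio.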

How the data were processed

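The deposited counts are whole-number reads per Ensembl gene, 1 table per assay, which the authors named adjusted; the adjustment itself is not given in the sources used here. FastQC, Bowtie2 2.5.1, STAR 2.7.10a, HTSeq 2.0.3 and DESeq2 1.40.2 are listed in the submitters' processing notes; the genome build, gene models and strandedness were not given in the sources used here. Rows outside genes (no feature, ambiguous, several alignments) were left out; reads in genes made up 27.0% to 28.5% of RNA-seq counts and 72.3% to 73.1% of footprint counts. The authors' comparison tables, with 12 columns of per-library values, were not used. Gene names were looked up by ID (54587 rows by versioned and 567 by unversioned ID), and the rest kept their ID.

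Counts of the 12 libraries were fitted with edgeR 4.0.16 in R 4.3.3: TMM factors within each assay, a quasi-likelihood test of the interaction of genotype and assay, the replicate number as a block within assay, and Benjamini-Hochberg adjustment over 11631 genes. The fit was tested on simulated data. It called 57 of 102 genes given a log2 change of 1 and 88 of 92 given a change of 2, with 8 false calls. Many shifts of 1 or less could thus be missed. The simulated deviations mirrored exactly (r = -1), which those of the data did not. CPM values use the TMM-scaled totals. No 2 libraries of a group agreed within sampling noise (chi-square per degree of freedom 3.54 to 14.1).

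Replicate numbers are from the titles. Same-numbered RNA-seq and footprint libraries of a genotype deviated together at r = 0.072 to 0.18 across genes, and differently numbered ones at -0.18 to 0.037; not every pair exceeded 0.1, so the numbers are not taken to pair the assays.

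The members and lists were chosen with earlier results of these data known. Named genes are those called, the 10 highest and 10 lowest TE shifts with at least 10 CPM in each assay and separate differences, the highest and lowest well-counted member of each list described in full (the 5 highest and 5 lowest medians, translation machinery, messages known for translational control) and 8 published targets; others were named after their values were seen. The microRNA list was corrected after its rows were seen, to leave out host transcripts. Alternatives were RLE factors, total reads, other count filters, no replicate block and a block that joins same-numbered libraries of a genotype across assays. Further ones were DESeq2 1.42.0, each library left out, summed reads, and well-counted members. Protein lengths, transcripts and 1 published target were not analysed here. The lowest member of 1 list is not reported here.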

Additional observations from a re-analysis of the deposited data

Results flagged for a closer look

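In 2 genes the effect of the knockout differed between footprints and RNA-seq by the test of that difference (edgeR interaction, adjusted over 11631 genes). Gm4759 had a difference of 1.98 on the log2 scale (adjusted p 0.0172), with 3 of 3 footprint differences above the 3 RNA-seq differences. Mir181a-1, the row of the deleted microRNA, had -7.79 (adjusted p 0.000202), with 3 of 3 below.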

How the results depend on the processing

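The number of genes called in the test of the TE shift was 2, including the untranslated row of Mir181a-1. This number depended on the treatment of replicate numbers and on the filter. It was 22 with no replicate block (13 higher, 9 lower, and 13.7% of genes at an unadjusted p under 0.05). It was 16 (14.4%) with a block that joins same-numbered libraries of a genotype across assays, which the labels do not state to be the same mouse. With no filter beyond 1 read it was 30, with a mean count of at least 50 it was 1, with DESeq2 4, and with 1 library left out 1 to 3. Mir181a-1 and Gm4759 were among the calls without the block, with the block across assays and with DESeq2. Total reads in place of TMM moved the median of all genes to 0.082, and lists are to be read against that value there. Among the lists described in full, some medians moved beyond the spread of replicate numbers. Mitochondrial ribosomal proteins moved to 0.11 with total reads and microRNA rows to 0.023 with no filter. Cytosolic ribosomal proteins moved to 0.18 with a mean count of at least 50 and to 0.21 over members with at least 10 CPM. With 1 library left out they moved within 0.098 to 0.22, and selenoproteins within -0.083 to 0.091. With reads summed over the list, polyamine and iron genes moved to -0.045 and integrated stress response genes to -0.13. Of the other lists, nucleoporins moved in 3 of 21 alternatives and heat shock chaperones in 5. DEAD and DEAH box helicases and tyrosine phosphatases moved in 2 each. CCR4-NOT subunits, histone methyltransferases and demethylases, RIKEN transcripts and microRNA processing genes moved in 1 each. With total reads, Lamb3 turned to 0.027 and Cd69 to 0.018. With 1 library left out, these genes changed sign within the ranges Bcl2 -0.18 to 0.34, Cd69 -0.21 to 0.15, Kif1c -0.0036 to 0.34, Lamb3 -0.32 to 0.11, Phgdh -0.031 to 0.50, Plk1 -0.18 to 0.53, Ptpn11 -0.077 to 0.22, Ptpn22 -0.20 to 0.0034 and Usp20 -0.030 to 0.40. The cause of these changes was not tested. Of 1216 alternative medians of the 58 lists, 1043 kept the sign of the reported one. They are not all separate checks, since leaving out a WT library or its same-numbered KO library gave nearly the same fit. Lists that turned positive with total reads included selenoproteins (0.042), initiation, elongation and release factors (0.033), ribosome biogenesis (0.0095) and SR and hnRNP factors (0.016). Others were nucleoporins (0.012), DEAD and DEAH box helicases (0.036), heat shock chaperones (0.035) and histone methyltransferases and demethylases (0.015), and the naming is not complete. The values given here were all still below that setting's median of all genes. Scatter was larger at 8 to 12 mean counts than at 100 to 120.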

Other observations

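Markers of cells other than thymocytes were tested in small numbers. The median TE shift was 0.35 over 5 erythroid markers, 0.29 over 7 of thymic epithelium, 0.30 over 5 of fibroblasts and pericytes, -0.19 over 5 of neutrophils and -0.28 over 2 of endothelium, against 0.084 over 10 thymocyte markers. Erythroid markers summed to 76.5 to 91.0 CPM in WT RNA-seq and 45.9 to 59.7 in KO, and to 40.3 to 76.7 against 35.5 to 74.0 in footprints. Dendritic cell markers summed to 19.5 to 25.4 CPM in WT RNA-seq against 11.8 to 17.5 in KO, and to 41.2 to 50.9 against 26.8 to 38.4 in footprints, with no overlap in either assay.

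Interferon-stimulated genes were lower in KO in both assays by like amounts, with a median log2 difference of -0.30 in RNA-seq and -0.21 in footprints over 34 genes and a median TE shift of 0.013, between -0.11 and 0.13 with 1 library left out. Subunits of the CCR4-NOT deadenylase, which shortens poly(A) tails, had a TE shift below 0 in 10 of 11 genes with a median of -0.093, which turned to 0.053 without RNA-seq WT replicate 3 and to 0.061 without RNA-seq KO replicate 3. By replicate number their footprints differed from RNA by 0.0040, -0.043 and -0.26. SR and hnRNP splicing factors had 22 of 30 below 0, with a median of -0.063 that ran from -0.14 without replicate 2 of either footprint group to -0.027 without RNA-seq KO replicate 3. By replicate number their footprints differed from RNA by -0.12, 0.0018 and -0.23. All 4 Y-linked genes tested (Ddx3y, Kdm5d, Uty and Eif2s3y) had a TE shift below 0, with a median of -0.19; this set was chosen after Ddx3y was seen.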
